A study of Saccharomyces cerevisiae with 24 samples.

Results

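Ribosome biogenesis genes of budding yeast, Saccharomyces cerevisiae, were followed as a group of 59 named protein-coding genes among the 12289 features of the count table. The members are a fixed list of names, and all 59 were found and passed the filter on low counts. They encode nucleolar processing enzymes and assembly factors, sorted here into 10 roles that run from the small nucleolar ribonucleoproteins (snoRNPs) to the export of the finished subunits.

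Ribosomes are built in the nucleolus, where a long precursor rRNA is transcribed, modified at sites picked out by snoRNPs, cut, and folded onto ribosomal proteins with the help of many assembly factors. In budding yeast the genes for these factors are known to be transcribed together, high in rapid growth and low under stress or poor nutrients, and many carry the PAC and RRPE promoter motifs. Removal of the mRNA cap by the enzyme Dcp2 opens the main cytoplasmic route of mRNA decay, and the Lsm1-containing ring binds the shortened 3' ends of mRNAs and promotes decapping.

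Poly(A) RNA was sequenced from 24 libraries of 3 strains. The labels give the genotypes as wt, dcp2-ideg and lsm1-ideg, where ideg stands for an inducible degron, by which the tagged protein is destroyed once a small molecule is given. All cultures grew in rich YPD medium. The T0 libraries were taken without addition, and the T60 libraries after 60 min at 30 °C with 100 µM IAA (indole-3-acetic acid, an auxin) and 1 µM beta-oestradiol, given to wt as well as to both degron strains. Each of the 6 groups had 4 libraries. The sources used here do not say whether wt carries other parts of the degron system, or how much Dcp2 or Lsm1 protein was left. They also do not say that libraries of a group came from separate cultures, so p-values measure the spread between these libraries, which may be technical.

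The libraries held 41835174 to 83929951 counts, and a member had between 2831 and 95937 counts in a library, so counting error was small beside the spread between libraries. Values are CPM, counts relative to the library's total after scaling by TMM factors, which set libraries to a common level over most features, and a change is a log2 difference with its standard error (SE). A member was called when its adjusted p was under 0.05 in edgeR's quasi-likelihood test over all 11776 features tested, which gives every adjusted p printed here unless another test is named. The mRNA of the targeted genes was read first. DCP2 mRNA was at 124 ± 29.3 CPM (SD, n = 4) in dcp2-ideg T0 and 68.1 ± 13.2 CPM in T60, and LSM1 mRNA was already lower in lsm1-ideg than in wt at T0, by a log2 difference of -0.60 ± 0.08 (adjusted p = 1.13e-04). Neither value measures the protein.

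Some libraries stood apart. Deviations here are log2 differences of a library from the median of the other 3 libraries of its group. Over protein-coding features of at least 10 CPM, their median size was 0.467 in replicate 4 of dcp2-ideg T0 and 0.327 in replicate 4 of dcp2-ideg T60. It was 0.217 in replicate 4 of wt T0 and 0.195 in replicate 3 of wt T60. In the other 20 libraries it was at most 0.149, in replicate 2 of dcp2-ideg T60. In replicate 4 of dcp2-ideg at both times, the median size of the members' log2 deviation from the other 3 libraries was 0.368 at T0 and 0.256 at T60, against 0.0614 to 0.34 in the other 6 dcp2-ideg libraries, the highest being replicate 2 of T60. In both libraries numbered 4, short members tended to be high and long ones low, with a correlation of deviation and log2 length of r = -0.597 at T0 and -0.51 at T60 across the 59 members, which share each library. Replicate 4 of wt T0 had the opposite relation, with r = 0.548. Over the members alone the order differs, since the median size was 0.164 in replicate 3 of wt T60 and 0.148 in replicate 4 of wt T0, against 0.195 in replicate 3 of lsm1-ideg T0 and 0.166 in replicate 2 of lsm1-ideg T60. Replicate 2 of wt T0 had r = -0.617 with deviations of a median size of 0.134. A fit without the 4 libraries that stood apart over protein-coding features was added after seeing the data. In it 58 members were lower in dcp2-ideg beyond wt, 57 beyond lsm1-ideg, 58 within dcp2-ideg and 3 within lsm1-ideg. Of all features 21.6%, 19.9%, 27.1% and 6.99% were called lower in these comparisons. In the other 4 comparisons 0 members were lower, and 0 were higher in any. Same-numbered T0 and T60 libraries deviated together in dcp2-ideg and in lsm1-ideg but not in wt, so a fit that pairs them within each strain was also added.

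The promoters show what the group shares at the DNA level. The PAC box is known as the binding site of the repressors Dot6 and Tod6, and the RRPE (ribosomal RNA processing element) as that of Stb3. The 250 bases before the start of each feature were searched on both strands for the PAC core GATGAG, its longer form GCGATGAG and the RRPE core AAAAATTT, in the RefSeq R64 genome, whose coordinates are those of sacCer3. The longer PAC form contains the core, and the run AAAAATTTTT holds the RRPE core once on each strand. The 9 stretches of 120 bases shown here end just before the feature starts. They belong to the 5 genes that exemplify the group, the 2 that changed most in the dcp2-ideg strain and the 2 that changed least. They are written 5' to 3' on the gene's own strand, and capitals mark the PAC and RRPE cores.

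NOP1 (chrIV:427100-427219, plus strand): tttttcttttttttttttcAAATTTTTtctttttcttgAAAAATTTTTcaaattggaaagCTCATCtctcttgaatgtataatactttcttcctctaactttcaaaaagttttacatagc
CBF5 (chrXII:505975-506094, plus strand): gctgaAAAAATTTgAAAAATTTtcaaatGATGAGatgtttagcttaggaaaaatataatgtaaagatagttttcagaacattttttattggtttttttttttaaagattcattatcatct
DBP3 (chrVII:361949-362068, minus strand): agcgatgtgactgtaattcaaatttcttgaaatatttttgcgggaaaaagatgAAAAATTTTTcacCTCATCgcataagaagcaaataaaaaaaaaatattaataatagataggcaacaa
UTP10 (chrX:217337-217456, minus strand): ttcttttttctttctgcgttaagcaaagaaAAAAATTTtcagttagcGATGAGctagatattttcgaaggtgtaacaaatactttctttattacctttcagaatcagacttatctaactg
NMD3 (chrVIII:443649-443768, plus strand): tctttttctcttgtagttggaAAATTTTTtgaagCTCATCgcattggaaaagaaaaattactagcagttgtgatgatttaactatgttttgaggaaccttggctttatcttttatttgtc
KRR1 (chrIII:23430-23549, minus strand): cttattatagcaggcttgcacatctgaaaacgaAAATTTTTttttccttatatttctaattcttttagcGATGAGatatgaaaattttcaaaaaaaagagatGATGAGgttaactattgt
NHP2 (chrIV:87344-87463, plus strand): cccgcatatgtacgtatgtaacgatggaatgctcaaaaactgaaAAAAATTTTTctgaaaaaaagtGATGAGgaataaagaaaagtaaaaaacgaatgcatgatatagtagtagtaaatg
NOC4 (chrXVI:821452-821571, minus strand): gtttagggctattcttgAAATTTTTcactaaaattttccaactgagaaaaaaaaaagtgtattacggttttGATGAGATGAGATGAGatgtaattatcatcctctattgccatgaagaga
SPB4 (chrVI:146971-147090, minus strand): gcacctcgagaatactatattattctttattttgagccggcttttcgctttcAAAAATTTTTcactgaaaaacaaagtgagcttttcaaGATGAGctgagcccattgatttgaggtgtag

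The stretch of NOP1 shows RRPE cores upstream of a single PAC core on the opposite strand, CTCATC. Those of CBF5, UTP10 and NHP2 have the same arrangement with the PAC core on the gene's strand. In the group as a whole, 53 of 59 promoters (89.8%) held the PAC core, against 18.4% of 5782 promoters of protein-coding features. The longer form was found in 30 (50.8%) against 4.19%. The RRPE core was found in 51 (86.4%) against 15.2%. Both cores were present in 46 promoters (78.0%) against 5.85%, and in 40 of these 46 the RRPE match nearest the start lay upstream of the nearest PAC match. The median position was 57 bases before the feature start for PAC matches and 87 bases for RRPE matches. The feature started before the coding start in 58 of 59 members, with a median of 50 bases between the 2 starts. EMG1 alone had neither. The 2 genes with the least change, NOC4 and SPB4, hold both cores, as do the 2 with the most, KRR1 and NHP2. A match is a description of letters, and no binding was measured.

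Before treatment the members spanned a wide range of levels. In wt T0 the mean level per length ran from 28.7 CPM per kb for UTP20, a large processome protein, to 919 CPM per kb for NSR1, the yeast nucleolin, with a median of 134.2. The snoRNP core proteins filled most of the top. NSR1 stood at 919 ± 90.8 CPM per kb (SD, n = 4) and NOP1, the box C/D methyltransferase, at 800.2 ± 103, so the difference between these neighbours was close to their SDs. NOP56 followed at 551 ± 60.6, CBF5 at 508 ± 39.0, NOP58 at 507 ± 32.6, NHP2 at 479.7 ± 63.7 and NOP10 at 442 ± 124 CPM per kb. From NOP56 on, each differed from the next by less than the larger SD of the pair. At the low end, SPB4 was at 59.8 ± 4.91 and UTP22 at 65.2 ± 5.94 CPM per kb. The range was of like width in the other groups, with a highest level 27.4 to 34.0 times the lowest, and in dcp2-ideg T60 the median level was 76.64 CPM per kb.

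The members fell together in the dcp2-ideg strain after treatment. Their summed level was 21090 ± 1221 CPM (SD, n = 4) in wt T0, 20770 ± 1351 in wt T60, 20711 ± 1012 in dcp2-ideg T0, 10968 ± 1449 in dcp2-ideg T60, 21228 ± 1642 in lsm1-ideg T0 and 19368 ± 1105 in lsm1-ideg T60. The 4 dcp2-ideg T60 libraries lay between 9909 and 13109 CPM, below each of the other 20 libraries, whose lowest was 18775. Without any scaling, the members took 1.93% ± 0.109 of all counts in dcp2-ideg T0 and 1.49% ± 0.202 in T60, against 1.94% ± 0.126 and 1.97% ± 0.142 in wt and 1.96% ± 0.149 and 1.91% ± 0.121 in lsm1-ideg. Counts are relative within a library and no absolute scale was used, so a fall here is a fall relative to other RNAs. A loss of these mRNAs and a rise of other RNAs cannot be told apart by it. In bulk cultures, less of an mRNA per cell and fewer cells that hold it cannot be told apart either.

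**Figure D1:**
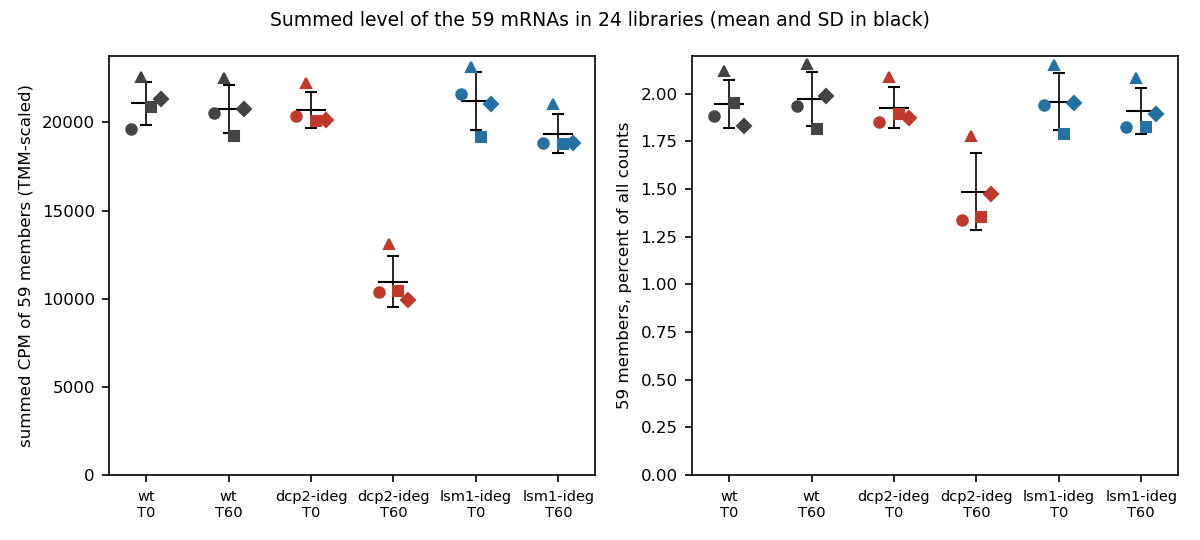
Summed level of the 59 mRNAs in each of the 24 libraries, as TMM-scaled CPM (left) and as percent of all counts without scaling (right), with the mean and SD of each group in black and the replicate numbers as marker shapes (1 circle, 2 triangle, 3 square, 4 diamond). The dcp2-ideg T60 libraries lie between 9909 and 13109 CPM, below all others, and the triangle, replicate 2, is the highest of its group in all 6 groups.

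From T0 to T60 within dcp2-ideg, 58 of 59 members were called lower and 0 higher, with a median log2 change of -0.89. Of all features 23.9% were called lower in that comparison, and of protein-coding features 39.0%, while 27.9% and 19.5% were called higher. The median change of all features was 0.08 and that of protein-coding features -0.18. For 49 of 59 members every T60 library lay below every T0 library, which held for 16.7% of all features. Measured beyond the change in wt, as the difference between the changes of both strains, 55 members were lower and 0 higher, with a median of -0.89 against 0.07 for all features and -0.18 for protein-coding ones. The share of all features called lower was 15.9%, and 27.4% of protein-coding features, and 18.5% and 13.1% were called higher. DESeq2's Wald test called 57 members lower, and the fit paired within strains 58, where 19.2% and 21.2% of all features were called lower. Beyond the change in lsm1-ideg, 53 were lower and 0 higher with a median of -0.73, where 13.3% of all features and 21.3% of protein-coding ones were called lower and 15.2% and 11.1% higher. These comparisons share the dcp2-ideg libraries, and those beyond wt in either degron strain share the wt libraries, so their counts are not independent.

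**Figure D2:**
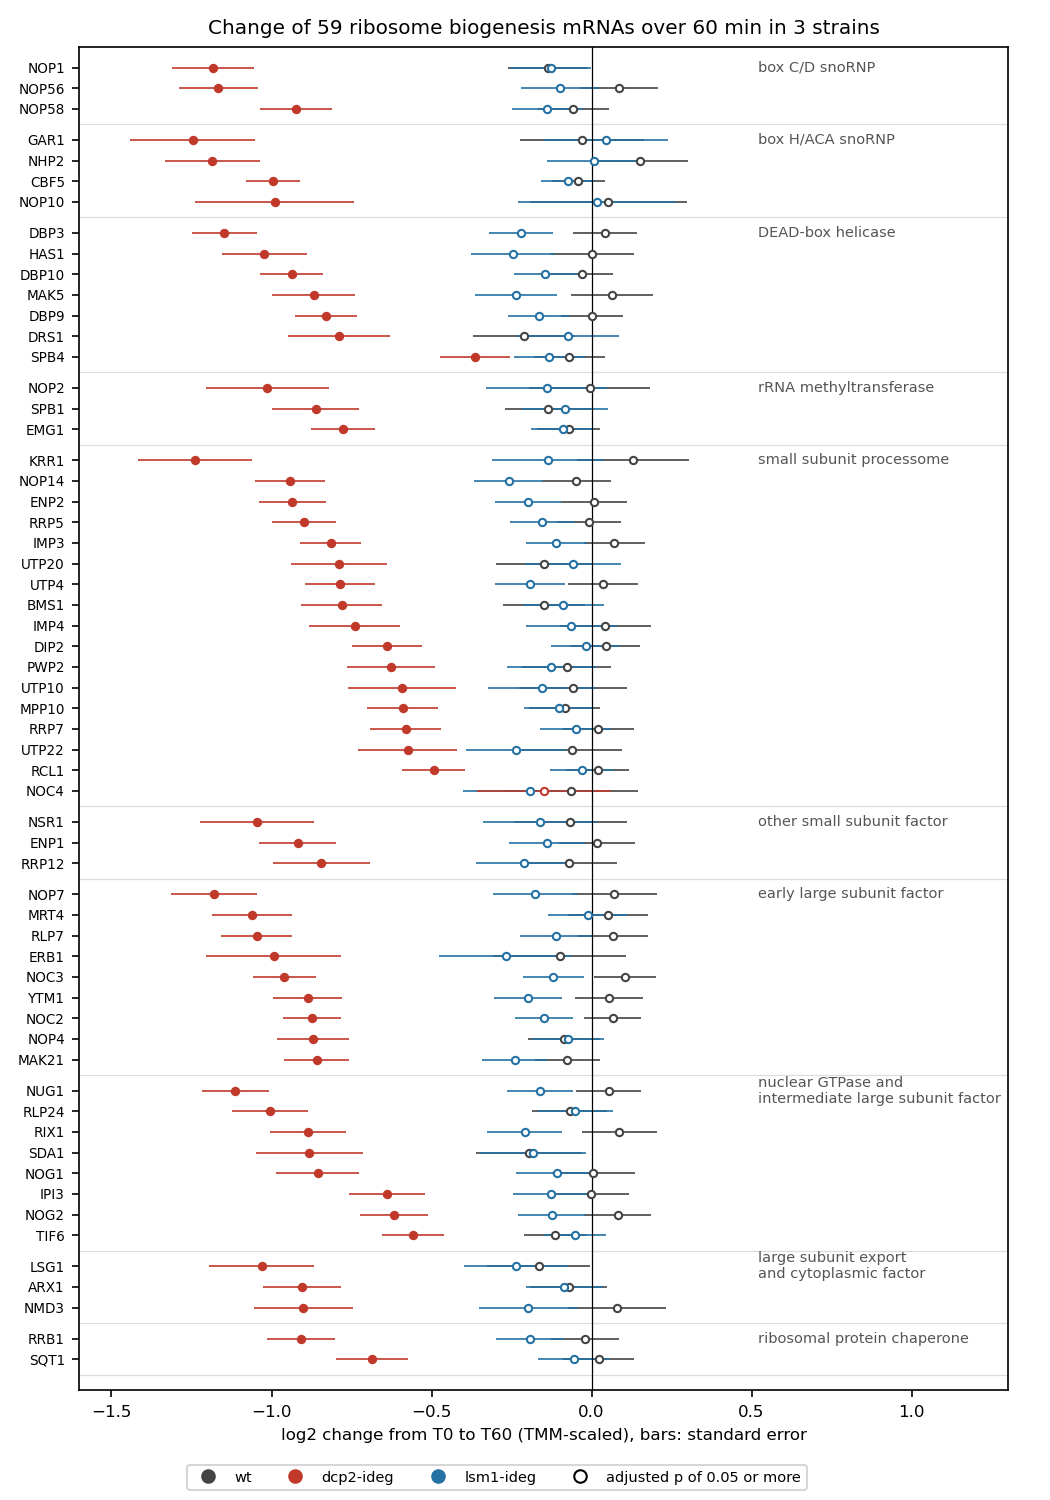
Change of each member from T0 to T60 in wt (grey), dcp2-ideg (red) and lsm1-ideg (blue), as a TMM-scaled log2 change with its SE, ordered by role and filled where the adjusted p was under 0.05. In dcp2-ideg 58 of 59 lie to the left and are filled, from -1.25 for GAR1 to -0.36 for SPB4, and NOC4 is open. The wt and lsm1-ideg points lie between -0.27 and 0.15 and are open.

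Among the box C/D snoRNP proteins, which methylate rRNA at guided sites, all 3 members fell beyond wt, with a median of -1.05. NOP1, the methyltransferase itself (YDL014W, chrIV:427220-428588, plus strand), was at 1007, 1084, 995 and 741 CPM in the dcp2-ideg T0 libraries 1 to 4 and at 438, 499.6, 428 and 320.2 in T60. The groups did not overlap, and replicate 4 was the lowest at both times. In wt the values were 941, 1095, 1064 and 1281 CPM at T0 and 1013, 1064, 865 and 1044 at T60, and in lsm1-ideg 1072, 1057, 1004 and 1119.6 and 946, 1014, 971 and 963. The log2 change of NOP1 beyond wt was -1.05 ± 0.18 (adjusted p = 6.15e-05). NOP56, a scaffold of the same particle, was at 933, 1028, 924 and 1451 CPM in dcp2-ideg T0 and 464, 513, 418 and 538 in T60, with the high value of replicate 4 at T0 standing above the other libraries. Its change beyond wt was -1.25 ± 0.17 (adjusted p = 5.05e-06), and that of NOP58, the other scaffold, was -0.87 ± 0.16. A dubious open reading frame overlaps 354 bases of NOP58 on its strand, so its counts may be shared.

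The box H/ACA snoRNP proteins, which convert uridines of rRNA to pseudouridine, all fell beyond wt as well (4 of 4, median -1.13). CBF5, the pseudouridine synthase (YLR175W, chrXII:506095-507783, plus strand), was at 819, 867, 790.2 and 891 CPM in dcp2-ideg T0 and at 438, 446, 414 and 391 in T60. The groups did not overlap. CBF5 stood at 760.5, 879, 898 and 896 CPM in wt T0 and 828, 853, 789 and 866 in wt T60, and its change beyond wt was -0.95 ± 0.12 (adjusted p = 1.10e-06). NHP2, a core partner that binds the guide RNA, was at 311, 345, 303 and 550.0 CPM in dcp2-ideg T0 and 152, 166, 139.7 and 207 in T60, again with replicate 4 high at both times and no overlap. NHP2 changed beyond wt by -1.34 ± 0.21 (adjusted p = 2.20e-05), and -1.22 with both dcp2-ideg libraries numbered 4 left out. The partners GAR1 and NOP10 changed by -1.22 ± 0.27 and -1.04 ± 0.35, with a wider error for NOP10, the shortest member.

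**Figure D3:**
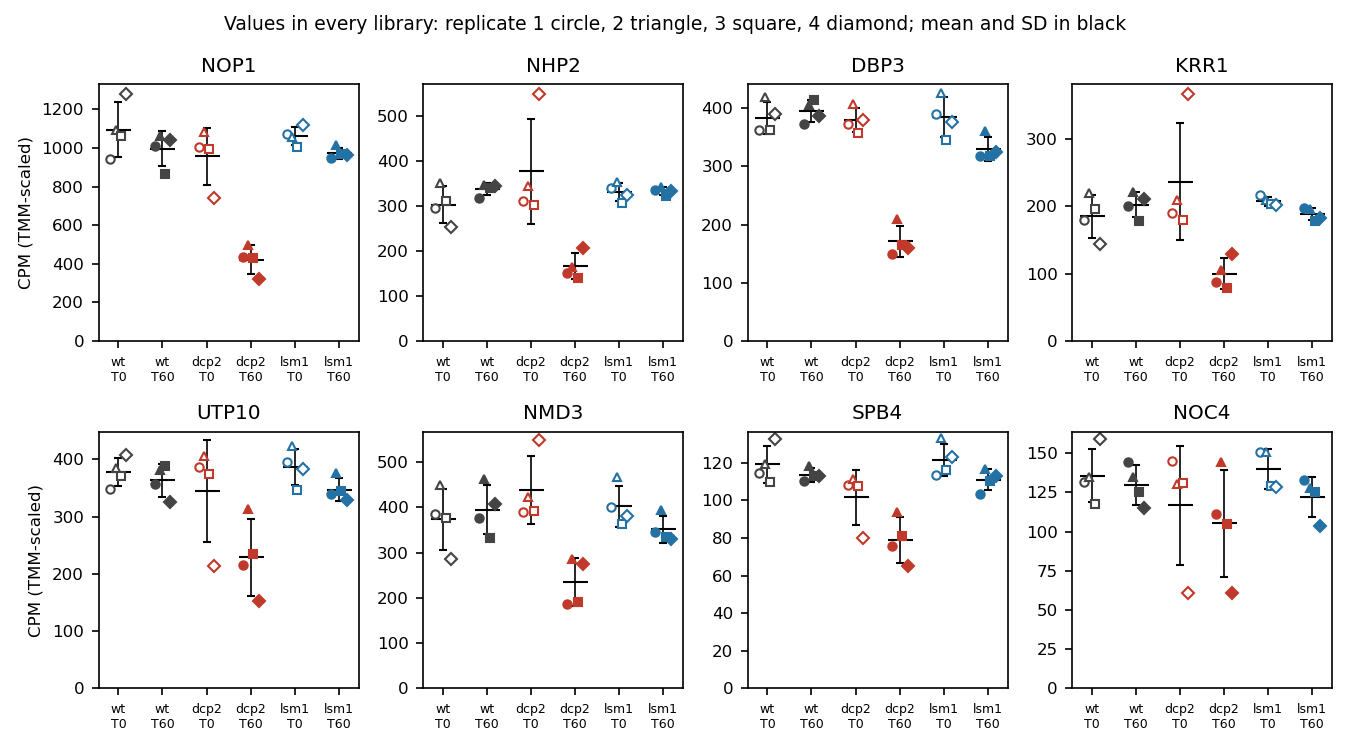
Level of 8 members in each of the 24 libraries, as TMM-scaled CPM with axes from 0. T0 is open and T60 filled, markers give the replicate number, and black bars the mean and SD of each group. Within dcp2-ideg the T60 libraries lie below the T0 libraries for NOP1, NHP2, DBP3, KRR1 and NMD3, the ranges of UTP10 and SPB4 overlap with T0 through replicate 4 of T0, and NOC4 overlaps throughout.

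Of 7 DEAD-box helicases, which use ATP to open RNA duplexes in pre-ribosomes, 6 fell beyond wt (median -0.91). DBP3, which acts early in large subunit processing (YGL078C, chrVII:360084-361948, minus strand), was at 373, 408, 358 and 379 CPM in dcp2-ideg T0 and 149.7, 210.4, 165 and 159.5 in T60, a gap far wider than the spread of either group. In lsm1-ideg it was at 390.4, 426, 345 and 377 CPM at T0 and 317, 361, 318 and 324 at T60, where the ranges overlapped. Its change beyond wt, -1.19 ± 0.14, had the smallest adjusted p of all members (7.34e-07), and its change beyond lsm1-ideg was -0.93 ± 0.14 (adjusted p = 2.89e-05). HAS1, which works on both subunits, changed by -1.02 ± 0.19 beyond wt, and DBP9, DBP10, MAK5 and DRS1, all of the large subunit, by -0.93 to -0.58. SPB4 is described with the members that were not called.

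The 3 rRNA methyltransferases fell beyond wt by -1.01 for NOP2, -0.73 for SPB1 and -0.71 for EMG1, which acts on the small subunit. NOP2, a cytosine methyltransferase of the large subunit rRNA, was at 391, 429, 411 and 191 CPM in dcp2-ideg T0 and 187, 222, 189.7 and 106 in T60. Replicate 4 of T0 lay within the T60 range, so the groups overlapped, while within each replicate number T60 was lower. The adjusted p of NOP2 beyond wt was 0.00485. Between wt T0 and T60 its mean went from 411 ± 27.6 to 409 ± 26.3 CPM, a difference well inside the spread.

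The small subunit processome, the assembly that forms on the young precursor rRNA, was the largest role with 17 members and had the smallest median change of the 10 roles (-0.64 beyond wt). Of the 17, 14 were called lower. KRR1, which binds RNA in the processome (YCL059C, chrIII:22325-23429, minus strand), had the largest change of all members. It was at 190.4, 209.7, 180.3 and 366 CPM in dcp2-ideg T0 and 87.3, 106, 78.3 and 129 in T60, without overlap, against 179.7, 220.4, 195 and 145 in wt T0 and 200.4, 222, 178 and 210.1 in wt T60. KRR1 changed beyond wt by -1.37 ± 0.25 (adjusted p = 1.28e-04). Replicate 4 of dcp2-ideg T0 carried the highest KRR1 value of the series, and with both dcp2-ideg libraries numbered 4 left out the change was -1.23. In the same library UTP10, a much longer gene, had the lowest value of its group.

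Other processome members changed by smaller amounts. ENP2 changed by -0.94 ± 0.15, NOP14 by -0.90 ± 0.15 and RRP5, which also acts in the large subunit pathway, by -0.89 ± 0.14 beyond wt. IMP3 and IMP4, which with MPP10 form a complex that joins the U3 snoRNA, changed by -0.89 and -0.78, and MPP10 by -0.51. The GTPase BMS1 changed by -0.63 and its partner RCL1 by -0.51. PWP2 and DIP2, which belong to the UTPB subcomplex, changed by -0.55 and -0.68. The call of PWP2 (adjusted p = 0.0312) was lost with at least 10 CPM in 4 libraries (adjusted p = 0.101), with protein-coding features alone (0.154), with only the groups compared (0.0716) and with total counts as the scale (-0.06, adjusted p = 0.833). It was also lost in 8 of the 24 fits that left out 1 library, and in the fit without all 6 libraries numbered 2. The 8 were those without replicate 1 of wt T0, replicate 1 or 2 of wt T60, replicate 1, 2 or 3 of dcp2-ideg T0, and replicate 1 or 4 of dcp2-ideg T60. UTP4, UTP20 and RRP7, a partner of Utp22, changed by -0.82, -0.64 and -0.60. Of the other small subunit factors NSR1, ENP1 and RRP12, all 3 were lower, with a median of -0.94. ENP1 and RRP12, which accompany the maturing small subunit, changed by -0.94 and -0.78. NSR1, the highest member per length, was at 1354, 1578, 1298 and 918 CPM in dcp2-ideg T0 and 596, 860.2, 614 and 425 in T60. Here every T60 library lay below every T0 library, with replicate 2 the highest at both times. A dubious open reading frame on the opposite strand overlaps 40.2% of NSR1, and its counts per base were 3.47% of those of NSR1. The change of NSR1 beyond wt was -0.98 ± 0.25 (adjusted p = 0.00355).

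All 9 early large subunit factors fell beyond wt, with a median of -0.94. NOP7, which joins ERB1 and YTM1 in a complex needed for large subunit rRNA processing, was at 608, 675, 626 and 894 CPM in dcp2-ideg T0 and 259, 370.2, 260.2 and 348 in T60. The ranges were well apart. NOP7 changed by -1.25 ± 0.19 beyond wt (adjusted p = 1.48e-05), YTM1 by -0.94 ± 0.15 and ERB1 by -0.89 ± 0.29. For ERB1 the T0 and T60 ranges overlapped, and its call (adjusted p = 0.0201) was lost without replicate 2 of dcp2-ideg T0, at an adjusted p of 0.0541. It was also lost with only the groups compared (adjusted p = 0.0592), with protein-coding features alone (-0.69, adjusted p = 0.0643) and with total counts as the scale (-0.41, adjusted p = 0.252). The Noc proteins NOC2, NOC3 and MAK21, which accompany pre-60S particles, changed by -0.94, -1.06 and -0.78. RLP7 and MRT4, relatives of ribosomal proteins that hold their place during assembly, both changed by -1.11, and NOP4 by -0.78.

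The nuclear GTPases and other intermediate large subunit factors were also lower (8 of 8, median -0.78). NUG1, a nuclear GTPase, was at 359, 397, 367 and 402 CPM in dcp2-ideg T0 and 163, 210.1, 161 and 172 in T60, and every T60 value lay below every T0 value, with replicate 2 the highest of T60. NUG1 changed beyond wt by -1.17 ± 0.15 (adjusted p = 1.26e-06). The GTPases NOG1 and NOG2 changed by -0.86 and -0.70. NOG2 holds an intron with the snoRNA snR191, and the deposited NOG2 feature spans it, so part of its counts may come from the intron. RLP24 changed by -0.94, SDA1 by -0.69, and RIX1 and IPI3, partners in 1 complex, by -0.97 and -0.64. TIF6, which keeps the subunits from joining early, had the smallest change among the called members, -0.44 ± 0.14 (adjusted p = 0.0136).

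The 3 late factors and the 2 chaperones were lower too, with medians of -0.87 and -0.80. NMD3, the export adaptor of the large subunit (YHR170W, chrVIII:443769-445521, plus strand), was at 391, 424, 393 and 549 CPM in dcp2-ideg T0 and 188, 286, 191 and 275 in T60. The groups did not overlap, and replicates 2 and 4 were the higher pair at both times. In wt NMD3 was at 385, 450.0, 376 and 286 CPM at T0 and 377, 463, 333 and 409 at T60. Its change beyond wt was -0.98 ± 0.22 (adjusted p = 9.95e-04), that of the export factor ARX1 -0.83 ± 0.17 and that of LSG1, the cytoplasmic GTPase that releases Nmd3, -0.87 ± 0.23. RRB1, the chaperone of ribosomal protein Rpl3, was at 422, 453, 412 and 475 CPM in dcp2-ideg T0 and 222, 266, 212 and 239 in T60, without overlap. RRB1 changed by -0.89 ± 0.15 beyond wt (adjusted p = 5.46e-05) and SQT1, the chaperone of Rpl10, by -0.71 ± 0.16.

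Beyond wt, 4 members were not called. NOC4, which pairs with Nop14 in the processome (YPR144C, chrXVI:819699-821451, minus strand), was at 145, 130.3, 131 and 60.7 CPM in dcp2-ideg T0 and 111, 144, 105 and 60.9 in T60. The ranges overlapped almost fully, and replicate 4 was the lowest at both times. Its difference beyond wt was -0.08 ± 0.29 (adjusted p = 0.858), and its sign turned under several settings. Even without the 4 libraries that stood apart it was not called, at -0.21 (adjusted p = 0.311). SPB4, a helicase of the large subunit, was at 108, 111, 108 and 79.8 CPM in dcp2-ideg T0 and 75.7, 94.1, 81.2 and 65.1 in T60, with a difference beyond wt of -0.30 ± 0.16 (adjusted p = 0.149). UTP10, a scaffold of the processome (YJL109C, chrX:211912-217336, minus strand), was at 387, 407, 374 and 213 CPM at T0 and 215, 314, 235 and 152 at T60, with -0.53 ± 0.24 (adjusted p = 0.087). For both, replicate 4 of T0 fell inside the T60 range while T60 was lower within each replicate number. UTP22 had -0.51 ± 0.22 (adjusted p = 0.0722).

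The calls of UTP10, SPB4 and UTP22 beyond wt depended on the libraries, the test and the scale used. With all libraries kept, DESeq2's Wald test called UTP10 (adjusted p = 0.0473) and UTP22 (adjusted p = 0.0373). edgeR with DESeq2 size factors called UTP22 (adjusted p = 0.0459). Without replicate 4 of dcp2-ideg T0 the adjusted p was 0.00414 for UTP10, 0.0171 for SPB4 and 0.001 for UTP22. Without the 4 libraries that stood apart 58 of 59 members were lower, NOC4 being the exception, against 21.6% of all features. Without replicate 2 of dcp2-ideg T60 the adjusted p was 0.0148, 0.049 and 0.0218. Paired within strains, all 3 were called, at adjusted p values of 0.00122 for UTP10, 0.0203 for SPB4 and 0.00479 for UTP22. Over all settings, values beyond wt came as high as -0.05 for UTP10, 0.20 for SPB4 and -0.02 for UTP22. The largest adjusted p values were 0.891, 0.671 and 0.938. Within dcp2-ideg alone, SPB4, UTP10 and UTP22 were called lower, by -0.36 ± 0.11, -0.59 ± 0.17 and -0.57 ± 0.16. The SPB4 call within the strain was lost with at least 10 CPM in 4 libraries (-0.19, adjusted p = 0.107) and with protein-coding features alone (-0.15, adjusted p = 0.226), and with total counts as the scale its sign turned (0.17, adjusted p = 0.16). The UTP10 call was lost with protein-coding features alone (-0.38, adjusted p = 0.0568) and with total counts (-0.06, adjusted p = 0.764).

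In the lsm1-ideg strain no member was called. The differences between T60 and T0 ran from -0.27 for ERB1 to 0.05 for GAR1, the median was -0.13 and 56 of 59 lay below 0. edgeR called 0 of 59 at the adjusted threshold, and DESeq2's Wald test also called 0. At an unadjusted p under 0.05 edgeR had 3 members lower, and 657 of all 11776 features. Of all features 0.73% were called lower and 1.12% higher, and of protein-coding features 1.32% and 1.11%. Below 0 lay 5424 of all 11776 features and 3551 of 5752 protein-coding ones. The median of all features was 0.03 and that of protein-coding features -0.06. In 2 of 59 members, UTP22 and KRR1, every T60 library lay below every T0 library, against 9.03% of all features. KRR1 was at 216, 209, 203 and 202 CPM in lsm1-ideg T0 and 197, 196, 179 and 183 in T60, a small gap. The count was not 0 under every setting. With the lsm1-ideg libraries fitted alone ERB1, MAK21 and UTP22 were called lower, and without the 4 libraries that stood apart HAS1, MAK21 and UTP22 were. Of all features 5.61% and 6.99% were called lower in these fits, so 3 of 59 members is near the background. Paired within the strain, 0 members were called, with a smallest adjusted p of 0.0517, where 3.81% of all features were called lower. At an unadjusted p under 0.05, a looser threshold than that of the 3.81%, 17 members were lower. The share of all features at that threshold is not given here, so the 17 have no background beside them. With the lsm1-ideg libraries fitted alone, 19 members and 1485 of 11349 features were lower at an unadjusted p under 0.05. For the numbers 1 to 4 the members' median T60 against T0 difference in lsm1-ideg was -0.223, -0.142, -0.033 and -0.144, and 58, 53, 38 and 56 members were below 0. The medians of protein-coding features were -0.0873, -0.0562, -0.0674 and -0.0767. In wt the members' medians were 0.06, 0.00189, -0.127 and -0.0383, which overlap those of lsm1-ideg.

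Beyond the change in wt, the lsm1-ideg median was -0.12, 49 of 59 lay below 0, and 0 were called by edgeR or DESeq2, with 0 at an unadjusted p under 0.05 by either tool. Of all features 0.0255% were called lower there and 0.187% higher, and of protein-coding features 0.0522% and 0.278%. At an unadjusted p under 0.05 edgeR had 349 of 11776 features lower and 554 higher in this comparison. Below 0 lay 5516 of all features and 3353 of 5752 protein-coding ones. For CBF5 the difference was -0.03 ± 0.12, for NOP1 0.01 ± 0.18, for DBP3 -0.26 ± 0.14 and for NMD3 -0.28 ± 0.22. These errors leave room for changes of the size of the median, so the values do not show that lsm1-ideg and wt acted alike. The dcp2-ideg change was tested directly against that of lsm1-ideg, and the 6 members not called lower in it were NOC4, SPB4, UTP10, UTP22, ERB1 and PWP2, the last 2 at adjusted p values of 0.0672 and 0.0567. ERB1 and PWP2 were called under other settings, at adjusted p values of 0.0332 and 0.0288 by DESeq2, 0.0309 and 0.0235 with the replicate block over all groups, 7.13e-05 and 0.00105 paired within strains, 0.00165 and 0.00373 without replicate 4 of dcp2-ideg T0, and 0.0158 and 0.018 without replicate 2 of dcp2-ideg T60. Paired within strains, UTP10 was called as well (-0.44, adjusted p = 0.00652), and 56 members were lower, against 19.5% of all features. Over all settings, the largest adjusted p values beyond lsm1-ideg were 0.45 for ERB1, 0.834 for PWP2 and 0.996 for UTP10.

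In wt no member was called after the same treatment. The median change was -0.01, 31 of 59 lay below 0, and values ran from -0.21 for DRS1 to 0.15 for NHP2. edgeR and DESeq2 each called 0 members, 0 had an unadjusted p under 0.05 by either tool, and 0.0% of all features were called lower. At an unadjusted p under 0.05 edgeR had 174 of 11776 features lower and 214 higher, and 6019 lay below 0. In no member did the T60 libraries all lie below the T0 libraries, against 0.892% of all features. Before treatment no member was called between a degron strain and wt. At T0 the median difference from wt was -0.02 in dcp2-ideg and 0.02 in lsm1-ideg, and edgeR and DESeq2 called 0 members in either. At an unadjusted p under 0.05, 2 members were lower and 1 higher in dcp2-ideg and 0 in lsm1-ideg by both tools. Of all 11776 features edgeR had 427 lower and 990 higher in dcp2-ideg at that threshold, and 395 and 439 in lsm1-ideg. In dcp2-ideg at T0, 0.238% of all features were called lower and 0.586% higher, and 0.243% and 0.713% of protein-coding ones. In lsm1-ideg these were 0.153% and 0.195%, and 0.122% and 0.296%.

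The size of the fall in dcp2-ideg depends on the scale. TMM factors were 1.29 to 1.49 in dcp2-ideg T60 and 0.859 to 1.49 over all libraries. With total counts as the scale, the median of all features beyond wt moved to 0.57, 25 members were called lower beyond wt and 0 higher, against 4.16% of all features lower and 37.9% higher, and the members' median was -0.38. Relative to the median of all features the members stood at -0.96 with TMM and -0.95 with total counts. Relative to that of protein-coding features they stood at -0.71 with either. A change of scale shifts all features by nearly the same amount, so these distances must stay alike and do not test the fall. Of all calls, 53.8% were higher with TMM and 90.1% with total counts. The 25 included all 3 box C/D proteins, 3 of 4 H/ACA proteins, 4 of 7 helicases and 6 of 9 early large subunit factors, but 0 of 3 methyltransferases, 0 of 3 export factors and 0 of 2 chaperones. KRR1 was at -0.85 (adjusted p = 0.0144) and DBP3 at -0.69 (adjusted p = 0.000537) on that scale. NOC4 and SPB4 turned to 0.40 and 0.20 without a call.

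Change was compared with level and length. Across the 59 genes, the change beyond wt and the log2 level per length in wt T0 had a correlation of r = -0.535 (Spearman's rho = -0.549), and change and log2 length r = 0.34 (rho = 0.366). GC content had r = 0.0694. These are descriptions across genes that share the same libraries, and length is also the property by which replicate 4 deviated. NSR1, NOP1 and NOP56 had high levels and changes past the median, and UTP10, UTP22 and NOC4 low levels and small ones. NOC3 had a low level, 80.6 CPM per kb, and a change of -1.06. TIF6 had 332 CPM per kb and a change of -0.44. KRR1 had the largest change from a middle level of 167 CPM per kb.

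**Figure D4:**
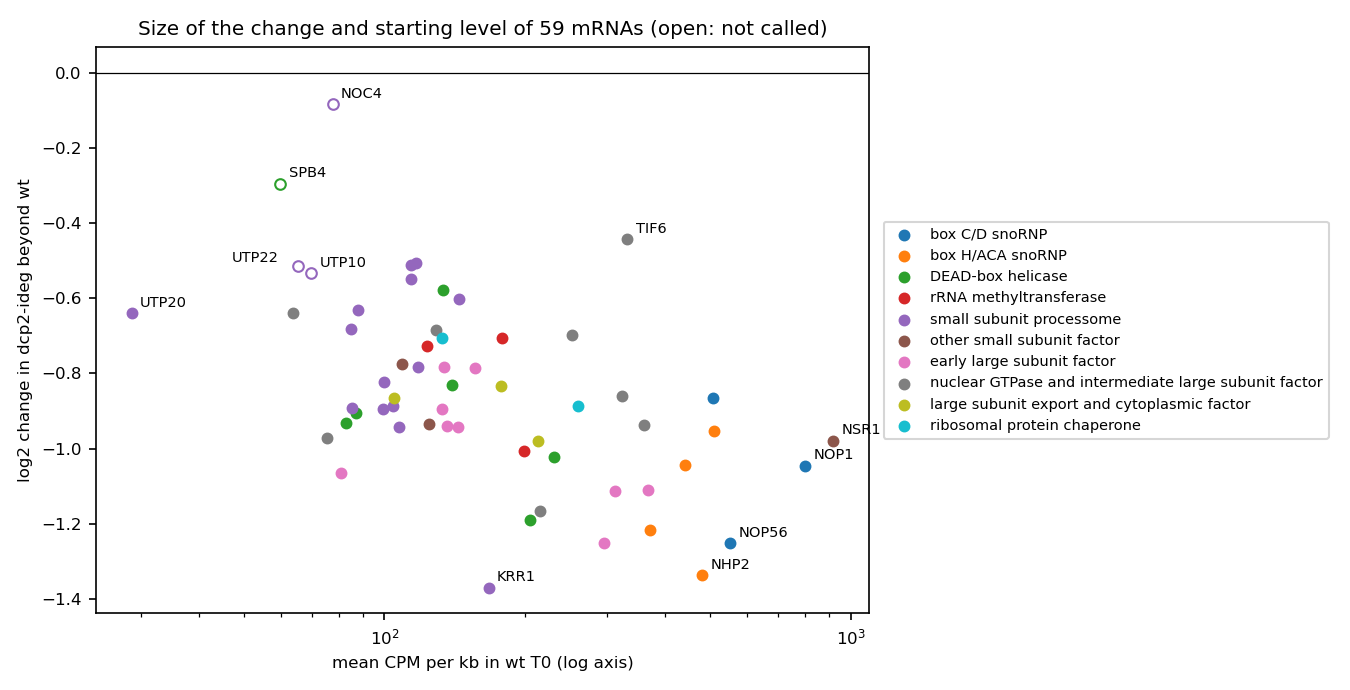
Change of each member in dcp2-ideg beyond wt (log2, TMM-scaled) against its mean level in wt T0 in CPM per kb on a log axis, coloured by role, with open points for the 4 members not called. The points drift downward to the right (r = -0.535), with NOC4 at -0.08 and KRR1 at -1.37 as the extremes.

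The change overlapped between motif classes. The 46 members with both cores had a median change beyond wt of -0.89 (43 called), the 7 with PAC alone -0.91 (7 called) and the 5 with RRPE alone -0.64 (4 called). The last were SPB1, UTP22, RRP7, RIX1 and IPI3. With 5 genes in the smallest class, whose values ran from -0.97 to -0.51, these values lie inside the range of the 46, from -1.37 to -0.08.

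Replicate 2 was high for these genes in every group. Its median log2 deviation from the other 3 libraries was 0.134 in wt T0, 0.139 in wt T60, 0.134 in dcp2-ideg T0, 0.334 in dcp2-ideg T60, 0.155 in lsm1-ideg T0 and 0.166 in lsm1-ideg T60. Between 56 and 58 of the 59 members were above the median of the other 3 libraries in each group. Protein-coding features had a median deviation between -0.0348 and 0.00388 in the same libraries. For 51 of 59 members, replicate 2 was above that median in all 6 groups, though not always the highest library. The same held for 10.1% of 5106 protein-coding features of at least 10 CPM. For replicates 1, 3 and 4 the count was 0 of 59, against 11.8%, 1.49% and 3.21% of those protein-coding features. Within dcp2-ideg, the members' median T60 against T0 difference was -0.978, -0.73, -0.913 and -0.922 for the numbers 1 to 4. Leaving out all 6 libraries numbered 2 left 50 of 59 lower beyond wt, where 11.6% of all features were called lower. What replicate number stands for was not given in the sources used here, and its part in the result was not tested.

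**Figure D5:**
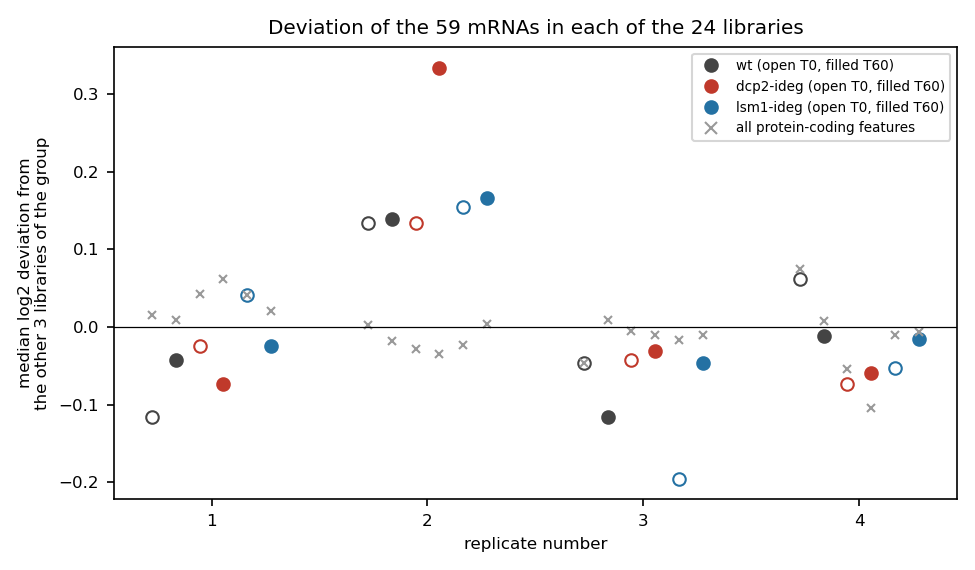
Median log2 deviation of the 59 members in each library from the median of the other 3 libraries of its group, by replicate number. Points are grey for wt, red for dcp2-ideg and blue for lsm1-ideg, open at T0 and filled at T60, with grey crosses for protein-coding features of at least 10 CPM. All 6 libraries numbered 2 lie above 0, from 0.134 to 0.334, where the crosses stay near 0.

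The pathway reaches beyond the 59. Of 97 other ribosome biogenesis factors, 84 were lower and 0 higher in dcp2-ideg beyond wt, with a median of -0.79, and of 138 ribosomal protein genes 133 were lower and 0 higher, with a median of -1.18. Of all features 15.9% were called lower and 18.5% higher in that comparison, and of protein-coding features 27.4% and 13.1%. In lsm1-ideg beyond wt 0 of 97 and 0 of 138 were called, where 0.0255% of all features were called lower and 0.187% higher. These counts of 0 are near that background. Other factors with the largest falls were CIC1, at 324 ± 79.7 CPM in dcp2-ideg T0 and 160.3 ± 35.8 in T60 and -1.27 ± 0.24 beyond wt, and UTP23, at -1.21 ± 0.21. At the other end, ESF1, a processome factor, was at 342 ± 43.9 CPM at T0 and 425 ± 67.1 at T60. It was called higher within dcp2-ideg (0.32 ± 0.11, adjusted p = 0.0221) but not beyond wt (0.36 ± 0.16, adjusted p = 0.0822), where its adjusted p was 0.0136 without replicate 4 of dcp2-ideg T60 and 0.00581 paired within strains. It was also called higher beyond wt with at least 10 CPM in 4 libraries, with protein-coding features alone, with total counts and without the 4 libraries that stood apart. JJJ1, a co-chaperone of the late large subunit pathway, had 0.07 ± 0.17. The promoters of the 97 resembled those of the members, with the PAC core in 83.5% and RRPE in 80.4%, while 18 and 21 of 138 ribosomal protein promoters held them.

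Of the 5 regulators, TOD6, a repressor that binds PAC, was at 159 ± 51.9 CPM in dcp2-ideg T0 and 94.97 ± 30.1 in T60. It fell within the strain by a log2 change of -0.75 ± 0.21 (adjusted p = 0.00376), and beyond wt it was at -0.63 ± 0.29 (adjusted p = 0.0991). DOT6, its partner repressor, was at 0.15 ± 0.35 beyond wt, STB3, which binds RRPE, at -0.04 ± 0.27, SFP1, an activator of ribosomal genes, at -0.14 ± 0.30, and the kinase SCH9 at -0.11 ± 0.38, none of them called. In replicate 4 of dcp2-ideg T0, TOD6 was at 81.6 CPM against 184 to 186 in the other 3. Without that library the TOD6 value beyond wt was -0.86 (adjusted p = 0.00336) and without replicate 2 of dcp2-ideg T60 it was -0.85 (adjusted p = 0.0257). Paired within strains it was -0.59 (adjusted p = 0.00179), and SCH9 was called lower without the 4 libraries that stood apart (-0.31, adjusted p = 0.0324). Over all settings TOD6 beyond wt ran from -0.86 to -0.14, with a largest adjusted p of 0.729. SCH9 ran from -0.42 to 0.36, so both calls depend on the setting.

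Some counts may be shared with neighbours. Of the 59 features, 10 overlapped another feature on their strand and 33 had one on the opposite strand, 25 of them a gene. UTP20 shares 125 bases with the histone gene HTA2 on the opposite strand. The strand setting of the counting is not given in the sources used here, so reads in such stretches cannot be assigned with certainty. No member had a near-identical copy elsewhere in the genome.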

How the data were processed

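Strand-specific poly(A) RNA-seq was made by the authors with the dUTP method, per the labels' protocols. The tools STAR and featureCounts and the build sacCer3 are named per the submitters' processing notes. Versions, annotation and strand setting are not given in the sources used here. Values deposited by the authors are whole-number counts per feature, not normalized, and every column matched a sample.

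Features were filtered with edgeR's filterByExpr (11776 kept, 513 left out), scaled with TMM factors and fitted over all 24 libraries in 1 quasi-likelihood model with edgeR 4.0.16 under R 4.3.3, leaving 18 residual degrees of freedom. The 8 comparisons are two-sided, with Benjamini-Hochberg adjustment across the 11776 features. Each SE was derived from the log2 change and the F statistic of its test. Alternatives were total count scaling, other size factors, filters and subsets, DESeq2 1.42.0, a replicate block and left-out libraries. The fit was tested on simulated counts, with changes given to features drawn at random from those tested. Of 100 log2 changes of size 1 it recovered 60 within dcp2-ideg, 31 in dcp2-ideg beyond wt and 38 in lsm1-ideg beyond wt. Of 100 changes of size 0.5 it recovered 11, 1 and 3. Of the features without a change, 1, 0 and 3 were called. The draw covered features of all levels, so these shares are not those of the members. Same-numbered T0 and T60 libraries were taken as paired where all 4 correlations of their deviations from the group means were over 0.1, which held in dcp2-ideg (0.528 to 0.937) and lsm1-ideg (0.265 to 0.562) but not in wt (-0.104 to 0.327). The pairing comes from these deviations, as the labels do not say what the number marks. A fit with a replicate block within each strain, wt included, leaving 9 residual degrees of freedom, was added for the 6 comparisons that involve T60. No libraries of a group agreed within sampling noise (lowest chi-square per degree of freedom 19.6).

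The members, the other lists and the comparisons were chosen with earlier results of these data known. Values per library are given for the 5 genes the choice of members names as examples, the 2 members with the largest and the 2 with the smallest change in dcp2-ideg beyond wt, and the member with the largest change in each role. UTP22, ERB1, PWP2 and TIF6 were singled out after their values were seen. Of the other factors the 2 at each end were named, and all 5 regulators. Motifs were counted in the R64 genome, where 56 of 59 coding sequences fell within their same-named feature.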

Additional observations from a re-analysis of the deposited data

Results flagged for a closer look

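In 9 of 96 groups of 4 libraries examined, 1 library lay far from the other 3, where chance gives about 1 in 20 for a single group. The groups share the same 24 libraries and are not independent, so the count of 9 cannot be tested against that rate. In replicate 4 of dcp2-ideg T0 the values were 213.0 CPM for UTP10, 79.8 CPM for SPB4 and 191.5 CPM for NOP2, all low, and 366.3 CPM for KRR1, which was high. Replicate 2 was high for DBP3 in lsm1-ideg T60, at 360.8 CPM, for NUG1 in lsm1-ideg T60, at 371.9 CPM, and for the summed level of the members, at 22220 CPM in dcp2-ideg T0 and 21020 CPM in lsm1-ideg T60. CBF5 was low in replicate 1 of wt T0, at 760.5 CPM.

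The change from T0 to T60 differed between strains, by the test of the difference itself in edgeR's quasi-likelihood model. It was lower in dcp2-ideg than in wt for 55 members and lower than in lsm1-ideg for 53, against 15.9% and 13.3% of all features. Among the named members the log2 difference from wt was -1.05 for NOP1, -0.954 for CBF5, -1.19 for DBP3, -0.98 for NMD3, -1.37 for KRR1 and -1.34 for NHP2. It was -1.25 for NOP56, -1.01 for NOP2, -0.979 for NSR1, -1.25 for NOP7, -1.17 for NUG1 and -0.888 for RRB1. The log2 difference from lsm1-ideg was -1.06 for NOP1, -0.922 for CBF5, -0.927 for DBP3, -0.703 for NMD3, -1.1 for KRR1 and -1.19 for NHP2. It was -1.07 for NOP56, -0.872 for NOP2, -0.885 for NSR1, -1.0 for NOP7, -0.951 for NUG1 and -0.716 for RRB1.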

How the results depend on the processing

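Total count scaling moved the counts most, to 36 members lower within dcp2-ideg, 25 in dcp2-ideg beyond wt and 12 beyond lsm1-ideg, where 6.82%, 4.16% and 3.14% of all features were called lower. On that scale these values turned sign without a call. Within dcp2-ideg they were NOC4 at 0.38 and SPB4 at 0.17, beyond wt NOC4 at 0.40, SPB4 at 0.20, STB3 at 0.44, SFP1 at 0.34 and SCH9 at 0.36, and beyond lsm1-ideg UTP10 at 0.0015, SPB4 at 0.21 and UTP22 at 0.10. ESF1 and JJJ1 were called higher there. NMD3, NOP2, NSR1, RRB1, ERB1 and PWP2 kept their direction beyond wt but lost the call, as did KRR1, NOP2, NSR1, RRB1 and NMD3 beyond lsm1-ideg, and UTP10 and NMD3 within dcp2-ideg. NMD3 beyond lsm1-ideg was also lost with at least 10 CPM in 4 libraries and with protein-coding features alone, and NOP2 without the 6 libraries numbered 2. With at least 10 CPM in 4 libraries, NOC4 was at 0.0188 within dcp2-ideg, and beyond wt NOC4 was at 0.0702, STB3 at 0.109, SFP1 at 0.013 and SCH9 at 0.0364. With protein-coding features alone, 45 members were lower beyond wt, where 17.6% of the features in that fit were called lower. In that fit NOC4 was at 0.0674 within dcp2-ideg, and beyond wt NOC4 was at 0.121, STB3 at 0.159, SFP1 at 0.0616 and SCH9 at 0.0888. NOC4 beyond lsm1-ideg was at -0.00721 with DESeq2 size factors, -0.00711 with DESeq2 and -0.105 without the 6 libraries numbered 2, where STB3 beyond wt was at 0.0529. Without the 4 libraries that stood apart, JJJ1 was at -0.0616 and DOT6 at -0.0234 beyond wt. In that fit 3 members were lower within lsm1-ideg, as when only the groups compared were fitted (3). Of all features 6.99% and 5.61% were called lower in these 2 fits. The settings without the 4 libraries, without libraries numbered 2 or 4 and with pairing within strains were chosen after seeing the data. The cause of these moves was not tested.

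Leaving out 1 library at a time left 50 to 58 members lower beyond wt, 50 to 57 beyond lsm1-ideg and 58 within dcp2-ideg, with 0 higher. With all libraries kept, 15.9%, 13.3% and 23.9% of all features were called lower in these comparisons. Without replicate 1 of wt T0, for example, 1704, 1525 and 2773 of 11839 features were. With 1 library left out, NOC4 ran from -0.377 to 0.0421 within dcp2-ideg, from -0.319 to 0.107 beyond wt and from -0.197 to 0.235 beyond lsm1-ideg. Beyond wt, JJJ1 ran from -0.0478 to 0.184, STB3 from -0.275 to 0.131, SFP1 from -0.382 to 0.042, SCH9 from -0.423 to 0.118 and DOT6 from -0.139 to 0.358.

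Same-numbered libraries of a degron strain and wt at T0 were not paired, since not every correlation of their deviations was over 0.1. Over all groups, 38 of 60 same-numbered pairs had one over 0.1, with a range from -0.683 to 0.937. With the replicate block over all groups 55 members were lower beyond wt, 55 beyond lsm1-ideg and 58 within dcp2-ideg, against 16.8%, 14.9% and 24.8% of all features. TOD6 beyond wt was called there (adjusted p = 0.0494). With the replicate block within each strain the members' counts were 58, 56 and 58, against 21.2%, 19.5% and 28.1% of all features. The count was 0 in wt and in lsm1-ideg. The calls it changed among the genes named were those of UTP10, SPB4, UTP22, ESF1 and TOD6 beyond wt and UTP10, ERB1 and PWP2 beyond lsm1-ideg, all now past the threshold.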
